A study of Mus musculus with 18 samples.

Results

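Brown fat of mouse offspring was followed here through 8 genes that were chosen because their RNA differed with the mother's diet in the fetus: Snx10, Aspg, Prodh, Grk3, Cnnm2, Zbtb20, Zfp395 and Shprh. All 8 were found by symbol among the 55416 genes of the files, and all 8 were among the 14366 genes with enough counts to be tested. They were chosen by their counts in the fetal libraries, fish oil against control, so fetal diet differences are given as a description with no test. The diet differences at weaning and in adults took no part in the choice, and they are tested below.

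Interscapular brown fat came from C57BL/6 offspring of mothers that ate a control diet or one with fish oil while pregnant and nursing. The 6 groups held 3 libraries each: fetal control, fetal fish oil, weaned control, weaned fish oil, adult control and adult fish oil, each named by the mother's diet. Weaned offspring were 3 weeks old, and adults were 15 weeks old and had eaten a high fat diet for 8 weeks, in both adult groups. Adult age and high fat feeding cannot be told apart here, and no fetal age, sex, litter or pooling of animals is given in the sources used here.

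Brown adipocytes burn fatty acids and glucose to make heat, a programme that noradrenaline switches on through beta-adrenergic receptors and that matures around birth. The 8 genes do not form a single pathway. Snx10 encodes an endosomal sorting protein, Aspg and Prodh break down the amino acids asparagine and proline, Grk3 phosphorylates active G protein-coupled receptors so that they stop signalling, and Cnnm2 is a membrane protein of magnesium handling. Zbtb20 and Zfp395 encode zinc finger proteins of the nucleus, and Shprh encodes a ubiquitin ligase that marks the replication clamp PCNA for tolerance of DNA damage.

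The files hold forward strand counts of 7889595 to 17943071 per library, of which 47.1 to 65% were mitochondrial ribosomal RNA. Levels are in CPM, counts per 1000000 of a library size scaled by trimmed mean of M values (TMM), and 3 counts in a library corresponded to 0.145 to 0.433 CPM. All 14 brown adipocyte markers, Ucp1 among them, were detected in every library, and mean Ucp1 was 1190 to 3510 CPM over the groups. Skeletal muscle markers, 30 genes, summed to 12400, 9960 and 1980 CPM in the adult fish oil libraries and to 72.0 to 369 CPM in the adult control libraries, so the adult fish oil libraries stood apart in muscle RNA. In bulk tissue, fewer cells of a type and less RNA per cell cannot be told apart.

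The DNA just upstream of 4 of the genes is shown first, because Snx10, Aspg and Prodh were the lowest of the 8 relative to control in fetal fish oil libraries, while Shprh was high there. RefSeq promoter windows (GRCm38.p6) matched 6 of the 8 genes; Grk3 and Zfp395 had no match. Each line gives the 250 bases before the most upstream start, 5′ to 3′ on the gene's own strand. The windows lie at chr6:51523653-51523902 (Snx10, plus strand), chr12:112106433-112106682 (Aspg, plus strand), chr16:18089191-18089440 (Prodh, minus strand) and chr10:11149180-11149429 (Shprh, plus strand). Capitals mark matches on either strand to the GC box GGGCGG and the CCAAT box CCAAT, which read CCGCCC and ATTGG when they lie on the other strand.
Snx10: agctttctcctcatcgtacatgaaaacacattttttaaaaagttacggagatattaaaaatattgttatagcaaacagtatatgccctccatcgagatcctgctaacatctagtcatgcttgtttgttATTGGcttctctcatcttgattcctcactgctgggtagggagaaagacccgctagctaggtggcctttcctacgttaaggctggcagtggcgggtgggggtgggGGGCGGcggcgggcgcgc
Aspg: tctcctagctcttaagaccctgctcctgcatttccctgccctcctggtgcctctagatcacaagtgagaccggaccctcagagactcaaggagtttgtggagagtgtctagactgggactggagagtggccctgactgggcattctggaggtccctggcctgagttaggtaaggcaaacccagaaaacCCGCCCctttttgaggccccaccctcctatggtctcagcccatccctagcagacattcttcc
Prodh: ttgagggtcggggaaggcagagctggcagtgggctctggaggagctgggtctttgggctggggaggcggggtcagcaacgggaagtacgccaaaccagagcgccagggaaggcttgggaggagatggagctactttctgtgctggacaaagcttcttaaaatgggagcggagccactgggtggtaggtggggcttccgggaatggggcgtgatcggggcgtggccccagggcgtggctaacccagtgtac
Shprh: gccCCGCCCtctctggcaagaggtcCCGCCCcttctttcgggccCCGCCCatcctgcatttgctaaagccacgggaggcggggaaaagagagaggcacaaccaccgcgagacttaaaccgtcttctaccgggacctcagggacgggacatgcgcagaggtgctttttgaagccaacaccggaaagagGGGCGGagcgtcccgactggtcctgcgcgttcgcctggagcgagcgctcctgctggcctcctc
Shprh held 4 GC boxes, of which 3 lay 206 to 247 bases before the start, Snx10 held 1 GC box and 1 CCAAT box, and Aspg held 1 GC box. Prodh held neither motif. Over 27025 windows of the same length, one for each gene, 33% held a GC box and 34.5% a CCAAT box. Neither the E-box CACGTG (6.04% of windows), nor AGGTCA, the core read by many nuclear receptors (13.8%), nor the TATA box TATAAA (13%) was found in any of the 6 windows. No motif was shared by the 6 matched genes, and the GC box was in 4 of them (Cnnm2 also).

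In the fetus, Snx10, Aspg and Prodh stood at 34.7, 32.5 and 34.1% of the control mean in the fish oil libraries, Grk3 at 47%, Cnnm2 at 57.1% and Zbtb20 at 67.3%. Zfp395 and Shprh stood at 192 and 153% of control. The fetal diets were without overlap in all 8, as the choice gives; over all tested genes 21.9% were without overlap and 0.0975% passed an edgeR adjusted p of 0.05 in that contrast. The 8 genes ranked between 1 and 13 among all tested genes by p in it, and the nearest genes past the limit were Cep70 (log2 difference 0.76) and Cebpb (-0.74). Summed brown adipocyte markers were at 2260 to 2820 CPM in fetal fish oil and 3150 to 3800 CPM in fetal control libraries. Ucp1 alone averaged 1190 and 2080 CPM in these groups. Of the 14 brown adipocyte markers, 6 had positive and 8 negative fetal log2 differences (median -0.07). Summed skeletal muscle markers were at 2090 to 3530 CPM in fetal fish oil and 1050 to 1730 CPM in fetal control libraries. All 28 tested muscle genes had positive fetal log2 differences (median 0.91), where 51.3% of all tested genes had. All 6 markers of mural cells of blood vessels had negative ones (median -0.2). Of 10 fibroblast markers 9 were negative and 1 positive (median -0.08). None of the 30 muscle genes was at 0 in every library of a fetal group. The part of these markers in the fetal differences was not tested.

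None of the 8 genes kept a maternal diet difference that passed the test after birth. At weaning 0 of 8 passed at an edgeR adjusted p of 0.05, where 0.265% of all tested genes did. Snx10, Aspg, Zfp395 and Shprh, 4 of 8, had an unadjusted p under 0.05, against 13.3% of all tested genes. The fish oil libraries lay wholly above the control libraries for Aspg, Prodh and Cnnm2 and wholly below them for Zbtb20 and Shprh, 5 of 8 without overlap against 10.2% of all tested genes (5.05% above and 5.15% below). DESeq2 and limma-voom also called 0 of 8.

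The direction at weaning was the opposite of the fetal one in 6 of 8 genes. The 5 metabolic, trafficking and signalling genes that were low in fetal fish oil libraries (Snx10, Aspg, Prodh, Grk3 and Cnnm2) all had positive log2 differences at weaning, from 0.12 to 0.43, and Shprh, high in the fetus, had -0.36. Zbtb20 (-0.18) and Zfp395 (0.40) kept their fetal sign. The median size of the log2 difference, sign aside, was 0.38 over the 8 genes and 0.22 over all tested genes. With no gene past the test, these signs are a description of the libraries, and their difference from the fetal signs was not tested because the fetal contrast chose the genes.

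In adults 0 of 8 genes passed by edgeR, DESeq2 or limma-voom, where edgeR called 0.988% of all tested genes. Only Aspg had an unadjusted p under 0.05, against 6.82% of all tested genes. Aspg and Grk3 had fish oil libraries wholly below the control libraries, 2 of 8 without overlap against 14.1% of all tested genes (6.63% below). The median size of the log2 difference was 0.14 over the 8 genes and 0.17 over all tested genes, and the sign matched the fetal one in 3 of 8 (Snx10, Aspg and Grk3).

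**Figure D1:**
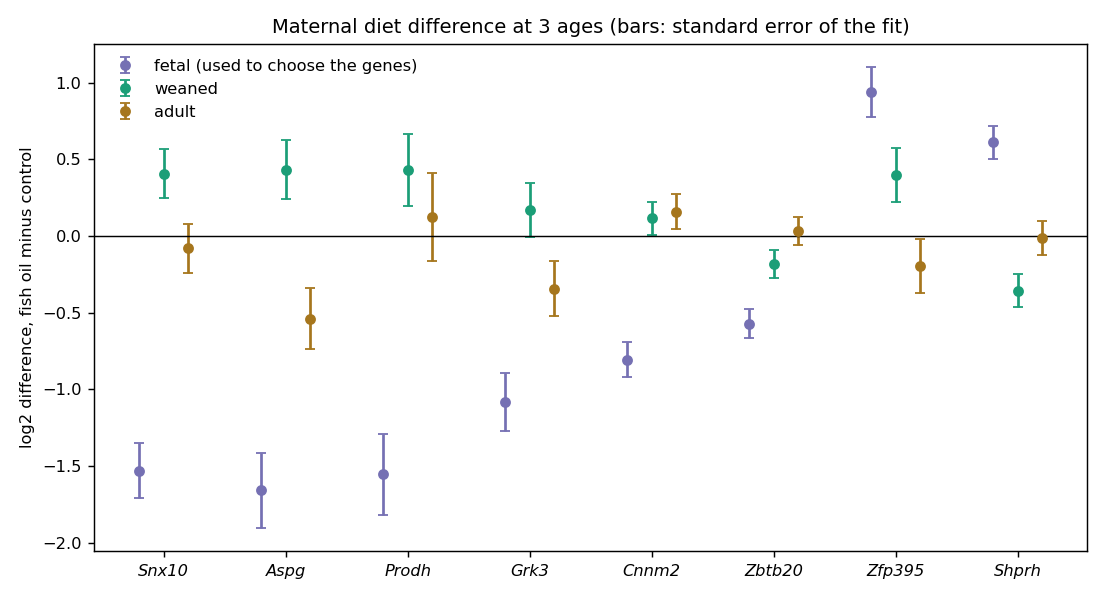
Fitted log2 difference between maternal fish oil and control libraries (vertical axis) for each of the 8 genes in fetal, weaned and adult brown fat; points are edgeR estimates from 3 libraries per group and bars are standard errors. The fetal points, which chose the genes, reach from -1.66 to 0.94, whereas the weaned points lie between -0.36 and 0.43 and the adult points between -0.54 and 0.16.

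Snx10 (ENSMUSG00000038301), the sorting nexin of endosomes and acidified vesicles, was at 17.1, 15.9 and 12.0 CPM in fetal control and 4.82, 5.37 and 5.41 CPM in fetal fish oil libraries. At weaning it was at 88.0, 89.8 and 123 CPM in control and 116, 119 and 164 CPM in fish oil libraries, and the highest control library lay within the fish oil range. In adults it was at 87.3, 80.1 and 85.7 CPM against 71.5, 89.7 and 78.3 CPM. The wide gap of the fetus was thus followed by overlapping groups at both later ages. The weaned log2 difference was 0.41 ± 0.158 (SE; 95% interval 0.07 to 0.74; edgeR adjusted p = 0.277) and the adult one -0.08 ± 0.16 (-0.42 to 0.26; adjusted p = 0.993). Without weaned fish oil library 3, the highest of all 18, the weaned difference was 0.23.

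Aspg (ENSMUSG00000037686), an enzyme that splits asparagine into aspartate and ammonia, had the widest range of the 8 genes over the 6 groups. It was 39.7-fold between the means of weaned fish oil and fetal fish oil, the latter low by the choice of genes. Aspg was at 8.38, 6.81 and 4.89 CPM in fetal control and 1.69, 1.72 and 3.12 CPM in fetal fish oil libraries. The fetal fish oil values came from 33 to 41 counts each. At weaning the control libraries held 67.4, 53.5 and 71.2 CPM and the fish oil libraries 81.8, 91.7 and 86.1 CPM. All 3 weaned fish oil libraries were above all 3 controls, the reverse of the fetus. In adults the order turned again, with 39.6, 29.8 and 39.5 CPM in control and 20.3, 28.9 and 26.0 CPM in fish oil libraries, which did not overlap although the closest pair were 29.8 and 28.9 CPM.

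The weaned log2 difference of Aspg was 0.43 ± 0.191 (0.03 to 0.84; edgeR adjusted p = 0.329) and the adult one -0.54 ± 0.201 (-0.96 to -0.11; adjusted p = 0.514). Both ages lay outside the choice of genes, so the change of the diet difference between them could be tested. Adult minus weaned, it was -0.97 ± 0.277 (-1.56 to -0.39; unadjusted p = 0.00271, edgeR adjusted p = 0.192), which did not pass. DESeq2 gave -0.99 with an adjusted p of 0.0381 and limma-voom -0.99 with 0.18, and over all settings tried the edgeR, DESeq2 and limma-voom adjusted p ran from 0.000825 to 0.608. By edgeR 0 of 8 genes passed this comparison, against 0.251% of all tested genes, and Snx10, Aspg, Zfp395 and Shprh, 4 of 8, had an unadjusted p under 0.05, against 10.6%. With adult fish oil libraries 1 and 2, the highest in muscle markers, left out together, the adult difference of Aspg was -0.49 and this change was -0.92.

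Prodh (ENSMUSG00000003526), the mitochondrial enzyme that starts proline breakdown and passes electrons to the respiratory chain, followed a different course with age. Fetal control libraries held 11.7, 14.5 and 16.1 CPM and fetal fish oil libraries 4.05, 5.47 and 4.88 CPM. At weaning it was at 60.5, 59.3 and 35.5 CPM in control and 63.9, 70.1 and 75.4 CPM in fish oil libraries. The groups did not overlap at weaning, but control library 3 was far below the other control libraries, and the log2 difference of 0.43 ± 0.233 had an interval that included 0 (-0.06 to 0.92; edgeR adjusted p = 0.437). Without that library the weaned difference was 0.21. In adults Prodh was at 6.49, 6.60 and 8.71 CPM in control and 4.82, 12.3 and 6.98 CPM in fish oil libraries. The adult fish oil libraries spanned the control range on both sides (log2 difference 0.12 ± 0.285, -0.48 to 0.72, adjusted p = 0.994), and the difference turned to -0.31 without library 2, the one at 12.3 CPM, and to -0.06 without libraries 1 and 2.

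Grk3 (ENSMUSG00000042249), the receptor kinase, was at 25.1, 25.3 and 19.3 CPM in fetal control and 13.1, 10.5 and 9.14 CPM in fetal fish oil libraries. At weaning the libraries were at 75.8, 61.1 and 87.7 CPM in control and 70.1, 110 and 73.0 CPM in fish oil. These overlapped, and the log2 difference of 0.17 ± 0.178 (-0.21 to 0.55; edgeR adjusted p = 0.711) turned to -0.07 without fish oil library 2, the one at 110 CPM. Adult control libraries held 103, 89.1 and 90.1 CPM and adult fish oil libraries 65.7, 77.2 and 79.8 CPM. The adult fish oil libraries were all lower, as in the fetus, but by a log2 difference of -0.34 ± 0.179 (-0.72 to 0.04; adjusted p = 0.788).

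Cnnm2 (ENSMUSG00000064105), best known for magnesium reabsorption in the kidney, varied little within groups. Fetal control libraries were at 20.9, 21.1 and 23.2 CPM and fetal fish oil libraries at 14.0, 11.4 and 11.9 CPM. Weaned control libraries were at 37.2, 36.5 and 39.6 CPM and weaned fish oil libraries at 41.0, 40.7 and 41.0 CPM. The weaned fish oil libraries were above the controls by a small margin (log2 difference 0.12 ± 0.109, -0.11 to 0.35, edgeR adjusted p = 0.676). Adult libraries held 21.5, 19.8 and 22.0 CPM in control and 21.4, 21.5 and 27.6 CPM in fish oil, which overlapped (0.16 ± 0.115, -0.08 to 0.40, adjusted p = 0.909).

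**Figure D2:**
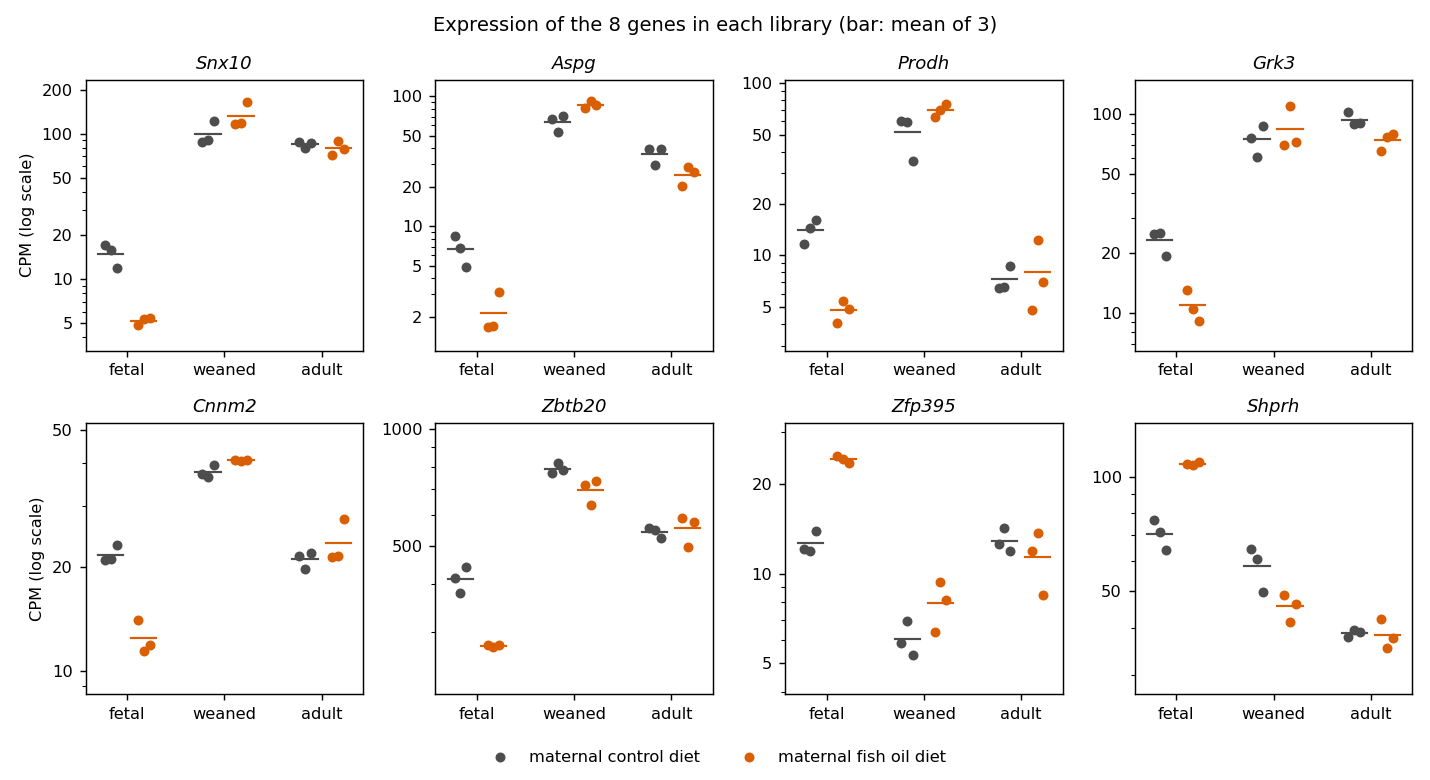
CPM (log scale) of each of the 8 genes in each of the 18 libraries, by age and maternal diet; each point is a library and each bar the mean of 3. Fish oil points are apart from control points in the fetus for every gene, as the choice of genes gives. At weaning they are apart in 5 of 8 genes (10.2% of all tested genes). They lie above control for Aspg, Prodh and Cnnm2 and below it for Zbtb20 and Shprh. In adults they are apart in 2 of 8, Aspg and Grk3 (14.1% of all tested genes). The other adult groups overlap, as for Snx10 at 71.5 to 89.7 CPM in adult fish oil and 80.1 to 87.3 CPM in adult control libraries.

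Zbtb20 (ENSMUSG00000022708), a transcriptional repressor known for shutting off fetal genes in the liver after birth, gave 3445 to 11208 counts per library, the most of the 8 genes. Its fetal libraries were at 415, 378 and 443 CPM in control and 278, 275 and 279 CPM in fish oil. At weaning they were at 769, 818 and 783 CPM in control and 716, 639 and 734 CPM in fish oil. The weaned fish oil libraries were all lower, the same side as in the fetus (log2 difference -0.18 ± 0.0926, -0.38 to 0.01, edgeR adjusted p = 0.409). In adults the groups overlapped at 555, 551 and 524 CPM in control and 591, 497 and 578 CPM in fish oil, with a difference of 0.03 ± 0.0928 (-0.16 to 0.23; adjusted p = 0.995).

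Zfp395 (ENSMUSG00000034522), a zinc finger protein, was one of the genes high in fetal fish oil libraries, at 24.8, 24.4 and 23.5 CPM against 12.1, 11.9 and 13.9 CPM in fetal control. At weaning it was at 5.83, 6.94 and 5.32 CPM in control and 6.38, 9.34 and 8.16 CPM in fish oil libraries. The weaned groups overlapped through the lowest fish oil and the highest control library, and the difference was 0.40 ± 0.176 (0.03 to 0.77; edgeR adjusted p = 0.331). Adult libraries were at 12.6, 14.2 and 11.9 CPM in control and 11.9, 13.7 and 8.46 CPM in fish oil, which overlapped (-0.20 ± 0.173, -0.56 to 0.17, adjusted p = 0.956). Zfp395 gave 69 to 515 counts per library.

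Shprh (ENSMUSG00000090112), the PCNA ubiquitin ligase, had 108, 107 and 109 CPM in fetal fish oil against 76.9, 71.3 and 63.9 CPM in fetal control libraries. At weaning the sides were exchanged, with 64.5, 60.6 and 49.7 CPM in control and 48.9, 41.5 and 46.1 CPM in fish oil libraries. The weaned difference of -0.36 ± 0.109 (-0.59 to -0.13) had the lowest unadjusted p of the 8 genes at that age, 0.00448, and an edgeR adjusted p of 0.196. Leaving out weaned control library 3 or weaned fish oil library 1 brought the edgeR adjusted p to 0.0322 and 0.0302. In those fits 371 and 1632 genes passed over all, against 38 with every library kept. In adults the values were 37.7, 39.5 and 38.9 CPM in control and 42.1, 35.4 and 37.6 CPM in fish oil libraries. They overlapped, with a difference of -0.01 ± 0.112 (-0.25 to 0.22; adjusted p = 1).

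Markers of other cells also differed between the diets at these ages. Among weaned libraries, the 6 markers of mural cells of blood vessels summed to 436 to 596 CPM in control and 389 to 399 CPM in fish oil, all 10 endothelial markers had negative log2 differences (summed level 539 to 702 and 476 to 571 CPM), and so had all 10 fibroblast markers (median -0.36; summed level 832 to 1290 and 604 to 1150 CPM). None of these 3 lists had a gene at 0 or one that passed the test. The 30 muscle genes summed to 97.9 to 351 CPM in weaned control and 267 to 363 CPM in weaned fish oil libraries, with 25 of 28 tested genes positive (median 1.24), 0 past the test, and Myog and Myod1 at 0 in both groups. In adults 23 of 28 tested muscle genes were called higher in fish oil libraries, with a median log2 difference of 5.34, while Tnnt1 and Myod1 were at 0 in adult control. Over all tested genes edgeR called 0.265% at weaning and 0.988% in adults. Of the 142 genes called in adults 97.9% were higher in fish oil libraries. With adult fish oil libraries 1 and 2 left out, the adult log2 differences were -0.62 for Zfp395, -0.49 for Aspg, 0.38 for Cnnm2 and -0.24 for Grk3. They lay between -0.11 and 0.08 for the other genes of the 8. This setting had 1 adult fish oil library, whose spread was taken from the other groups. The part of the marker genes in the weaned differences was not tested. Summed brown adipocyte markers overlapped between diets at weaning (3910 to 6000 and 4150 to 5890 CPM) and in adults (4560 to 5220 and 4230 to 5210 CPM).

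**Figure D3:**
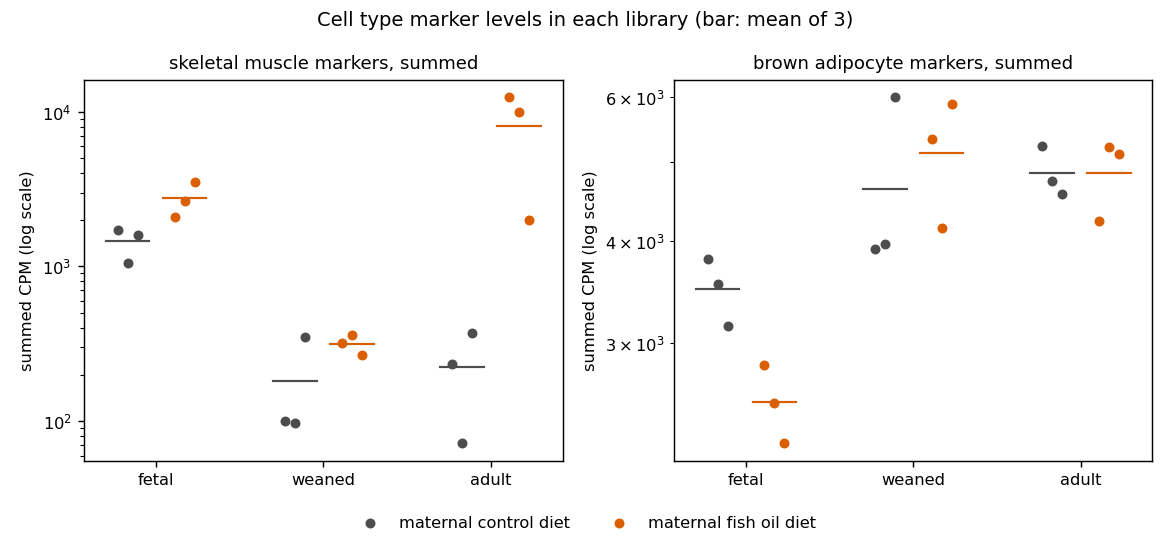
Summed CPM (log scale) of 30 skeletal muscle markers (left) and 14 brown adipocyte markers (right) in each library, by age and maternal diet; each point is a library and each bar the mean of 3. The adult fish oil libraries, at 1980 to 12400 CPM, are above every adult control library in muscle markers. Summed brown adipocyte markers differ between diets without overlap only in the fetus. There mean Ucp1 was 1190 CPM in fish oil and 2080 CPM in control libraries, and of the 14 markers 6 were higher and 8 lower in fish oil.

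The levels of the 8 genes in fetal and weaned brown fat are compared as a description, with no test, because the fetal libraries chose the genes. The comparison is given within each maternal diet. Under the control diet the weaned mean was above the fetal mean in 6 genes and below it in 2, Zfp395 and Shprh, and under fish oil the directions were the same. The fetal fish oil means, from which the second of these ratios is taken, were low or high by the choice of genes.

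Aspg had a weaned mean of 9.57 times the fetal one under the control diet and 39.7 times under fish oil. For Snx10 the ratios were 6.68 and 25.6, for Prodh 3.68 and 14.5, and for Grk3 3.22 and 7.71. The control libraries of the 2 ages did not overlap in any of these 4 genes, as the values by library above show. Cnnm2 had ratios of 1.73 and 3.29 and Zbtb20 of 1.92 and 2.51, again without overlap between the control libraries.

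The genes that were high in fetal fish oil libraries went the other way. Zfp395 had a fetal mean of 2.10 times the weaned one under the control diet and 3.05 times under fish oil. Shprh had 1.21 and 2.38 times, and its fetal control libraries (63.9 to 76.9 CPM) overlapped the weaned control libraries (49.7 to 64.5 CPM). Over all tested genes edgeR called 52.1% between these ages, averaged over both diets, 27% higher and 25% lower at weaning. Scaling by library size alone, with no TMM factors, moved the median of all tested genes by -0.59 log2 units in that average.

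Between weaning and adulthood on high fat diet 7 of 8 genes changed, where edgeR called 31.1% of all tested genes. Neither age had a part in the choice of the genes. Zfp395 was called higher, as were 16.1% of tested genes, and 6 genes were called lower, as were 14.9%. Prodh fell by 2.99 ± 0.189 on the log2 scale (edgeR adjusted p = 2.34e-08), a change exceeded by 0.919% of tested genes, and the weaned mean was 7.13 times the adult one under control and 8.70 times under fish oil. Adult control Prodh (6.49 to 8.71 CPM) lay between fetal fish oil (4.05 to 5.47 CPM) and fetal control (11.7 to 16.1 CPM) and overlapped neither. Adult fish oil (4.82 to 12.3 CPM) overlapped both fetal groups. The gap between the fetal groups followed from the choice of genes. Aspg fell by 1.31 ± 0.14 (adjusted p = 4.21e-06) and Cnnm2 by 0.82 ± 0.0792 (1.56e-06).

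Smaller falls were those of Snx10 (0.49 ± 0.112, edgeR adjusted p = 0.00321), Zbtb20 (0.43 ± 0.0657, adjusted p = 0.000116) and Shprh (0.42 ± 0.078, adjusted p = 0.000698). Zfp395 rose by 0.81 ± 0.124 (adjusted p = 0.000134). Grk3 did not pass, at 0.07 ± 0.126 (-0.19 to 0.34; edgeR adjusted p = 0.687), and its adult mean was 1.26 times the weaned one under control and 0.881 times under fish oil. Adult and weaned libraries did not overlap for Aspg, Prodh, Cnnm2 and Zbtb20, 4 of 8, all lower in adults, against 11.1% of all tested genes (4.59% lower). With library size alone the falls of Snx10, Zbtb20 and Shprh were -0.33, -0.26 and -0.25, and with a block for the replicate number Snx10 (adjusted p = 0.168) and Zbtb20 (0.0817) no longer passed.

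Other cell types moved with age as well. Of the tested markers, 8 of 9 general adipocyte and 8 of 14 brown adipocyte genes were called higher in weaned than in fetal libraries, and 24 of 28 muscle and 7 of 10 fibroblast genes lower, where 27% of all tested genes were called higher and 25% lower. From weaning to adulthood, averaged over both diets, 8 of 10 macrophage and 18 of 28 muscle genes were called higher. Called lower were 9 of 10 endothelial and 7 of 8 erythroid genes, against 16.1% higher and 14.9% lower over all tested genes. Summed muscle markers overlapped between weaned and adult control libraries (97.9 to 351 and 72.0 to 369 CPM). Under fish oil they were at 267 to 363 CPM at weaning and 1980 to 12400 CPM in adults. With adult fish oil libraries 1 and 2 left out, the adult fish oil group had 1 library (1980 CPM of muscle markers). Its spread was taken from the other groups. The log2 differences from weaned to adult were then -3.09 for Prodh, -1.29 for Aspg, -0.72 for Cnnm2 and -0.52 for Snx10. They were -0.44 for Shprh, -0.42 for Zbtb20, 0.12 for Grk3 and 0.59 for Zfp395. Within control libraries alone the weaned mean was 1.76 times the adult one for Aspg, 1.79 times for Cnnm2, 1.51 times for Shprh, 1.45 times for Zbtb20 and 1.19 times for Snx10, and the adult mean of Zfp395 was 2.14 times the weaned one. The part of the other markers in the age changes was not tested.

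Levels ordered by group put fetal fish oil lowest for Snx10, Aspg, Prodh, Grk3, Cnnm2 and Zbtb20 and highest for Zfp395 and Shprh. The place of fetal fish oil below or above fetal control followed from the choice of genes. For Aspg no group overlapped its neighbour in the order, which ran from weaned fish oil (86.5 ± 4.94 CPM, SD, n = 3) through weaned control (64.0 ± 9.33), adult control (36.3 ± 5.60), adult fish oil (25.0 ± 4.37) and fetal control (6.69 ± 1.75) to fetal fish oil (2.18 ± 0.82). For Grk3 the 4 later groups overlapped in sequence from 94.1 ± 7.88 CPM in adult control down to 74.2 ± 7.54 CPM in adult fish oil. For Cnnm2 and Zfp395 the fetal control group overlapped both adult groups next to it. For Prodh adult fish oil library 1 (4.82 CPM) fell within the fetal fish oil range of 4.05 to 5.47 CPM.

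A related gene was followed beside each of the 8: Snx11, Asrgl1 (another asparaginase), Prodh2 (which acts on hydroxyproline), Grk2, Cnnm4, Zbtb45, Zfp704 and Hltf (like Shprh a relative of yeast Rad5). By edgeR, DESeq2 or limma-voom 0 of the 8 relatives passed in the weaned or adult diet comparison. Over all tested genes edgeR called 0.265% and 0.988% in these comparisons. Only Grk2 at weaning had an unadjusted edgeR p under 0.05 (0.0494, log2 difference 0.31 ± 0.148). Over all tested genes 13.3% had one at weaning and 6.82% in adults. From fetal to weaned, Snx11 rose by 0.59 ± 0.207 and Asrgl1 by 0.55 ± 0.123 (edgeR adjusted p = 0.0237 and 0.00134). Grk2, the main receptor kinase of many tissues, had 0.19 ± 0.105 (adjusted p = 0.142). Zfp704 fell by 1.01 ± 0.162 (edgeR adjusted p = 6.68e-05) and Hltf by 0.32 ± 0.113 (0.0261). Snx11, Asrgl1, Zfp704 and Hltf, 4 of the 8 relatives, thus passed, where 52.1% of all tested genes did. From weaned to adult none of the relatives passed, where 31.1% of all tested genes did. Prodh2 gave 84 counts over 18 libraries, too few to describe. The difference between a gene and its relative was not tested.

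**Figure D4:**
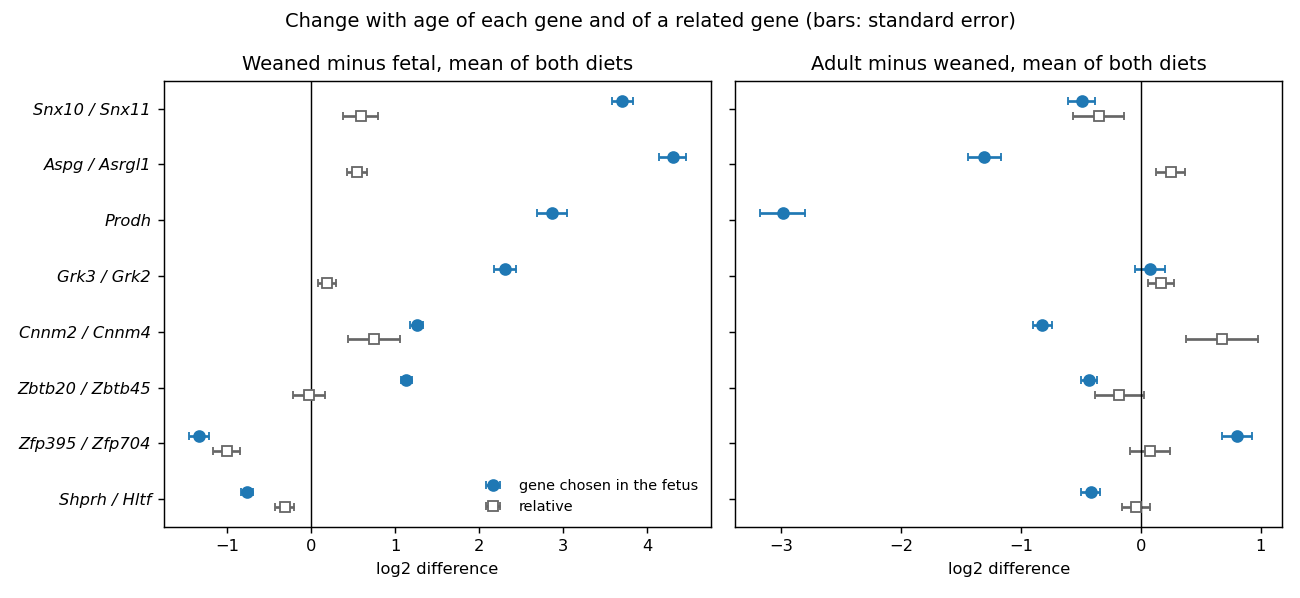
Log2 difference with age, mean of both diets, for each of the 8 genes (filled circles) and its relative (open squares): weaned minus fetal on the left, adult minus weaned on the right, with standard errors of the edgeR fit as bars; Prodh2 is left out for its low counts. The left side is a description for the 8 genes, since the fetal libraries chose them. Aspg (4.30) and Snx10 (3.71) lie far to the right of Asrgl1 (0.55) and Snx11 (0.59) on the left side, and Prodh (-2.99) lies farthest left on the right side.

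Genes of the surrounding pathways were compared in the same way. In the weaned diet comparison 0 genes passed by edgeR, DESeq2 or limma-voom among the tested members of each list: 27 other sorting nexins, 12 genes of asparagine and aspartate metabolism, 12 of proline and glutamate metabolism, 20 of beta-adrenergic signalling, 15 of magnesium transport, 37 BTB zinc finger factors and 20 of DNA damage tolerance. By edgeR 0.265% of all tested genes passed there, so few calls would fall in lists of this size. An unadjusted p under 0.05 was found in 8 of the 20 beta-adrenergic genes and 4 of the 12 asparagine and aspartate genes, and in 1 or 2 genes of each other list, against 13.3% of all tested genes. In adults, where edgeR called 0.988% of all tested genes, the single edgeR call in the lists was Slc25a12, a mitochondrial aspartate and glutamate carrier. It was at 7.76 CPM in fish oil and 1.34 CPM in control libraries (log2 difference 2.52 ± 0.37, edgeR adjusted p = 0.00103). DESeq2 called 1 of the 12 asparagine and aspartate genes and 1 of the 12 proline and glutamate genes in adults. Over all genes DESeq2 called 176 in that comparison. Slc25a12 was not called by limma-voom. It was high in the same adult fish oil group that was high in muscle markers, and the part of these markers in it was not tested.

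The enzymes next to Aspg and Prodh changed with age in both directions. In asparagine and aspartate metabolism 5 of 12 genes were called higher at weaning than in the fetus and 1 lower, where 27% of all tested genes were higher and 25% lower. The aspartate aminotransferase Got1 rose (2.33 ± 0.212), as did Cad of pyrimidine synthesis (1.59 ± 0.148), while the asparagine synthetase Asns was lower (-0.42 ± 0.112, edgeR adjusted p = 0.00485). In proline and glutamate metabolism 6 of 12 were higher and 2 lower, against the same 27% and 25%, including Aldh4a1, the enzyme after Prodh, at 1.29 ± 0.19 (adjusted p = 2.89e-05). The list medians were 0.22 and 0.63, against 0.01 over all tested genes. From weaning to adulthood 1 of the 12 asparagine and aspartate genes was higher, Got2 at 0.85, and 2 were lower, the urea cycle enzyme Asl at -1.71 and Got1 at -0.81. In the proline list 2 of 12 were higher, Pepd at 0.80 and P4ha1 at 0.83, and 1 was lower, the glutamine synthetase Glul at -1.14. Over all tested genes 16.1% were higher and 14.9% lower in adults. Aldh4a1 did not pass between weaning and adulthood.

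Of beta-adrenergic genes 9 of 20 rose at weaning and 3 fell, and 8 rose and 2 fell in adults, where 27% of all tested genes rose and 25% fell at weaning and 16.1% rose and 14.9% fell in adults. The thermogenic receptor Adrb3 rose by 3.89 ± 0.317 at weaning and by a further 2.47 ± 0.229 in adults (edgeR adjusted p = 4.01e-08 and 1.04e-06), where Grk3 had no change that passed. Another receptor kinase, Grk5, rose by 0.87 ± 0.122 at weaning, and Grk6 fell by 0.70 ± 0.0982 in adults. Of magnesium transport genes 7 of 15 rose and 4 fell at weaning, and 4 rose and 1 fell in adults, against the same shares. At weaning Mrs2 and Magt1 were at 0.89 and 0.91 and Trpm7 at -0.60. Trpm7 fell by a further 0.37 in adults.

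Sorting nexins were split at weaning, 7 of 27 higher and 4 lower (median -0.05), where 27% of all tested genes were higher and 25% lower, and Snx24 rose by 1.77 ± 0.174. Of BTB zinc finger genes 12 of 37 rose and 7 fell (median -0.03), against the same shares, with Zbtb7b at 1.09 and Zbtb10 at -1.13. In DNA damage tolerance 2 of 20 rose and 6 fell (median -0.20), among them Rad18 (-1.65 ± 0.181), Atad5 (-1.73 ± 0.125) and Rev3l (-0.89 ± 0.094). From weaned to adult 8 of 27 sorting nexins, 6 of 37 BTB genes and 5 of 20 damage tolerance genes rose, and 1, 2 and 1 fell, against 16.1% higher and 14.9% lower over all tested genes.

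Genes whose levels ran most like the 8 over the 18 libraries were ranked by Pearson correlation of log2 CPM among 7691 candidates. The libraries share their age and diet groups, so these values describe group patterns and carry no test. Snx10 ran with Hacd2 (0.984), Rgs7 (0.982) and Aspg (0.976), and Aspg with Snx10, Pgp (0.967) and Slc25a22 (0.966). Prodh ran with Stard5 (0.959), Cyp2b10 (0.95) and Papss2 (0.915), and Grk3 with G6pdx (0.974), Snx10 and Rgs7 (both 0.971). Cnnm2 ran with Dbt (0.932), Cyb5a (0.929) and Zbtb20 (0.923), and Zbtb20 with Aspg (0.946), Fmo2 (0.944) and Plcb4 (0.943). Zfp395 ran with Vrk2 (0.943), Caprin2 (0.935) and Sugp2 (0.907), and Shprh with Ccdc88a (0.967), Irf4 (0.961) and Trpm7 (0.952).

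Within the 8 genes, several of these likenesses differed with and without the fetal libraries. Snx10 and Grk3 had a correlation of 0.97 over 18 libraries and 0.09 over the 12 weaned and adult ones. Zbtb20 and Shprh had -0.70 over 18 libraries and 0.90 over the later 12. Others held in both sets, with Aspg and Snx10 at 0.98 and 0.84, Prodh and Cnnm2 at 0.89 and 0.94, and Zbtb20 and Zfp395 at -0.93 and -0.90. Over the later 12 libraries Aspg, Prodh, Cnnm2 and Zbtb20 had correlations of 0.71 to 0.94 with each other, and Grk3 had -0.41 to 0.14 with these 4.

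Reads on the opposite strand came to 1.16 to 4.06% of the forward counts of the 8 genes, the most for Zfp395 (4.06%) and Cnnm2 (3.97%). Shprh had 14740 forward and 14511 unstranded counts over the 18 libraries, fewer without strand than with it. With unstranded counts its weaned log2 difference was -0.37 (edgeR adjusted p = 0.191).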

How the data were processed

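RNA was extracted with Trizol and libraries were made with a TruSeq kit, per the labels' protocols. The deposited files hold raw counts per Ensembl gene, unstranded, forward and reverse, and the forward counts were used. The submitters' processing notes name Bowtie 0.12.2, STAR, mm8 and mm9. The annotation used for counting was not given in these sources. Gene coordinates were left out, except those of the RefSeq promoter windows on GRCm38.p6. Symbols were matched by identifier for 52083 of 55416 genes. Genes were filtered with filterByExpr, scaled with TMM and tested with the quasi-likelihood functions of edgeR 4.0.16 (R 4.3.3) on all 18 libraries in 6 groups, without a replicate block. Benjamini-Hochberg adjustment ran over 14366 tested genes, with a threshold of 0.05. Errors after log2 differences are standard errors, and intervals are 95%. Alternatives were DESeq2 1.42.0, limma-voom (limma 3.58.1), other scalings, no filter, the unstranded counts, mitochondrial rRNA left out, the compared ages alone, a replicate block and each library left out in turn. Leaving out adult fish oil libraries 1 and 2 together was chosen after seeing the data.

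The 8 genes and the gene lists were chosen with earlier results of these data known. The comparison of weaned with fetal libraries was fitted for all genes, and its test is not given for the 8 genes, since the fetal libraries chose them. The text names the 8 genes, 1 relative of each, up to 4 called genes per pathway list and comparison in order of adjusted p, and the 3 genes most alike in log2 CPM (prior count of 2) among named genes with a mean of at least 5 CPM. The lists of relatives and pathway genes do not hold the 8 genes. The same script was tested on simulated counts for the weaned comparison (14366 genes), where it called 83 of 100 genes changed 2-fold and 97 of 100 changed 4-fold, and 11 unchanged genes. The weaned log2 differences of the 8 genes were at most 0.43 in size, smaller than a 2-fold change. The simulation thus gives no recovery rate for differences of their size. The labels do not say that replicates came from separate animals, so the p-values reflect only how these samples spread, which may be technical. Replicate numbers were not taken to pair libraries. The title's number was used for adult fish oil library 2, whose source name says 3. Floors of 3 counts cover counting error only.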

Additional observations from a re-analysis of the deposited data

Results flagged for a closer look

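For 4 genes, Aspg, Prodh, Cnnm2 and Shprh, the log2 differences between diets had opposite signs in the fetus and at weaning. They had every fish oil library on opposite sides of the control libraries at these 2 ages. The fetal side followed from the choice of genes. Over all tested genes 21.9% were without overlap between diets in the fetus and 10.2% at weaning. Aspg and Prodh, each low under fish oil in the fetus, had weaned log2 differences of 0.43 and 0.43, with all 3 weaned fish oil libraries above all 3 controls. Cnnm2, also low in the fetus, had a weaned difference of 0.12 in the same manner. Shprh, high in the fetus, had a weaned difference of -0.36, with all 3 fish oil libraries below the controls. The change of direction was not tested, because the fetal contrast chose the genes, and none of the 4 weaned differences passed after adjustment.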

How the results depend on the processing

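In both diet comparisons after birth the count of the 8 genes called stayed at 0 under the alternatives, except that Aspg was called, 1 of 8, in adults with no filter and, for the adult minus weaned diet effect, by DESeq2 (1) and with no filter (1). With each library left out in turn the count ran from 0 to 1 at weaning (Shprh, without weaned control library 3 or weaned fish oil library 1), from 0 to 0 in adults and from 0 to 1 for the adult minus weaned diet effect (Aspg, without weaned fish oil library 1), and it stayed at 7 from weaned to adult.

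Counts over all genes moved more. For the weaned diet effect (38) they were 191 with DESeq2, 63 with library size alone, 21 with limma-voom, 770 with no filter, 0 with only the ages compared and 13 with the replicate block. For the adult diet effect (142) they were 17 with limma-voom, 546 with no filter, 89 with only the ages compared and 3 with adult fish oil libraries 1 and 2 left out. For the adult minus weaned diet effect (36) they were 165 with DESeq2, 63 with library size alone, 4 with limma-voom, 555 with no filter, 1 with only the ages compared, 8 with the replicate block and 1 without adult fish oil libraries 1 and 2. The replicate block gave 2859 from fetal to weaned (7478) and 1709 from weaned to adult (4461), and the latter was 2785 without adult fish oil libraries 1 and 2. Leaving out each library gave 2 to 1632 at weaning (1632 without weaned fish oil library 1, 371 without weaned control library 3), 89 to 197 in adults, 1 to 813 for the adult minus weaned diet effect (813 without weaned fish oil library 1), 6838 to 7893 from fetal to weaned and 3795 to 4689 from weaned to adult. The cause was not tested.

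Small differences changed sign. Cnnm2 was at -0.02 with library size alone and at -0.01 to -0.09 without adult control library 2 or adult fish oil library 3 (adult minus weaned diet effect, 0.04 as reported). Grk3 at weaning was -0.07 without weaned fish oil library 2. Among adult diet effects Prodh (0.12 as reported) ran from -0.31 to 0.38 with a library left out and was -0.06 without fish oil libraries 1 and 2, Shprh was 0.03 without library 2 and 0.00 without library 3, and Zbtb20 was 0.00 without control library 3 and -0.03 without fish oil library 1. With the replicate block, Snx10 (-0.35) and Zbtb20 (-0.37) no longer passed from weaned to adult, and the block changed no other call among the 8 genes. Of 9 pairs of libraries with the same number, 2 had a correlation above 0.1 (range -0.49 to 0.29), so the numbers were not taken to pair them. Library size alone moved the median of all genes to -0.59 from fetal to weaned, where 12.8% of calls were higher against 52% as reported, and to 0.15 from weaned to adult (76% against 51.9%), and the 7 calls from weaned to adult kept their direction.

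With 3 libraries a group, the biological coefficient of variation was 26.8% at weaning, 19.6% in adults and 8.98% in the fetus. Over all 18 libraries it was 20.6%. The edgeR tests, standard errors and intervals used 1 spread shared by all groups, so those at weaning drew on the less variable ages. Without adult fish oil libraries 1 and 2 that group had 1 library, and its spread was taken from the other groups.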
